A study of Mus musculus with 13 samples.

Results

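Endothelial cells hold their identity through a small set of DNA-binding proteins, and 10 of these were followed across the 13 arrays of the series: the ETS factors Erg, Fli1 and Ets1, the SOX factors Sox7, Sox17 and Sox18, the basic helix-loop-helix factors Tal1 and Lyl1, the zinc finger factor Klf2 and the homeodomain factor Prox1. They were chosen by name, with earlier results of these data known, and are 10 of the 18193 genes with a probe set on the array. All probe sets of each gene were taken, and the one with the highest mean over all 13 arrays served as its main probe set. The arrays held RNA of cells sorted by FACS on CD31, a surface protein of endothelial cells that some macrophages and platelets also carry, after platelets and red blood cells had been removed on Percoll. The cells came from SKOV3ip1 tumors, a human ovarian cancer line grown in mice, which per the methods of the study were female athymic nude mice without mature T cells. Their age is not given in the sources used here. The resistant group (4 arrays) came from tumors that grew again under B20, an antibody against VEGF-A, and the sensitive group (4 arrays) from tumors that responded to it. The control group (5 arrays) came from mice that, per the methods, received a control IgG. Mice were placed in the resistant or sensitive group by the bioluminescence of their tumors and tumors were taken at different times, so response and time of harvest cannot be told apart. Since the labels tie no array to a named animal, each p reflects how far these samples scatter and no more.

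ETS factors bind a short GGAA core in the enhancers of almost every gene that marks endothelium, and Erg and Fli1 are close relatives that share many of these sites. Sox7, Sox17 and Sox18 form the SOXF group, which acts in the specification of arteries and lymphatic vessels, and Prox1 is the factor that turns venous endothelium into lymphatic endothelium, in mouse downstream of Sox18. Klf2 is induced by laminar flow and keeps the vessel wall quiescent. Tal1 is needed to form the first blood cells, Lyl1 is its paralog, and both are also made in endothelium. Several of the 10 are not restricted to endothelium. Fli1, Ets1, Tal1, Lyl1 and Klf2 are also made by mature blood cells, Ets1 and Klf2 above all by lymphocytes and Fli1 and Tal1 by megakaryocytes, and Erg is made by blood stem cells. Sox7, Sox17, Sox18 and Prox1 are not typical of mature blood cells.

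As a list, the defining genes of endothelium were high on 2 of the 13 arrays only. The median of 25 endothelial identity genes, such as Cdh5 and Pecam1, was 3.72 to 4.29 (log2) in resistant tumors, 2.78 to 3.68 in sensitive tumors and 3.26 to 3.68 on control 1, 2 and 3, against 6.79 and 6.83 on control 4 and 5. Pecam1, which encodes the CD31 of the sort, read 2.33 to 3.41 on the first 11 of these arrays and 6.56 on both control 4 and 5. Not every gene of the list followed its median. Cd93 was highest on sensitive 4 (9.62, against 9.16 and 9.07 on control 4 and 5). Myct1 and Egfl7 were highest on sensitive 1 (6.52 and 6.66). The median of 18 macrophage and monocyte genes was 8.72 to 10.1 in resistant tumors, 4.55, 5.28, 5.25 and 9.86 in sensitive tumors and 8.03 to 9.97 in control tumors. Sensitive 3 carried the highest median of 9 B cell genes, 7.66, and sensitive 1 and 2 were high in mesothelial genes (6.61 and 7.29), as was resistant 2 (6.74). Sensitive 1 and 2 also had the lowest trimmed means as deposited, 19.4 on both, against 23.8 to 33.5 on the other arrays, and sensitive 4 the largest excess of 3′ over 5′ control signal (5.95 on the log2 scale, against 2.23 to 3.82 elsewhere). In sorted bulk samples such as these, fewer cells of a type and less RNA per cell cannot be told apart.

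**Figure D1:**
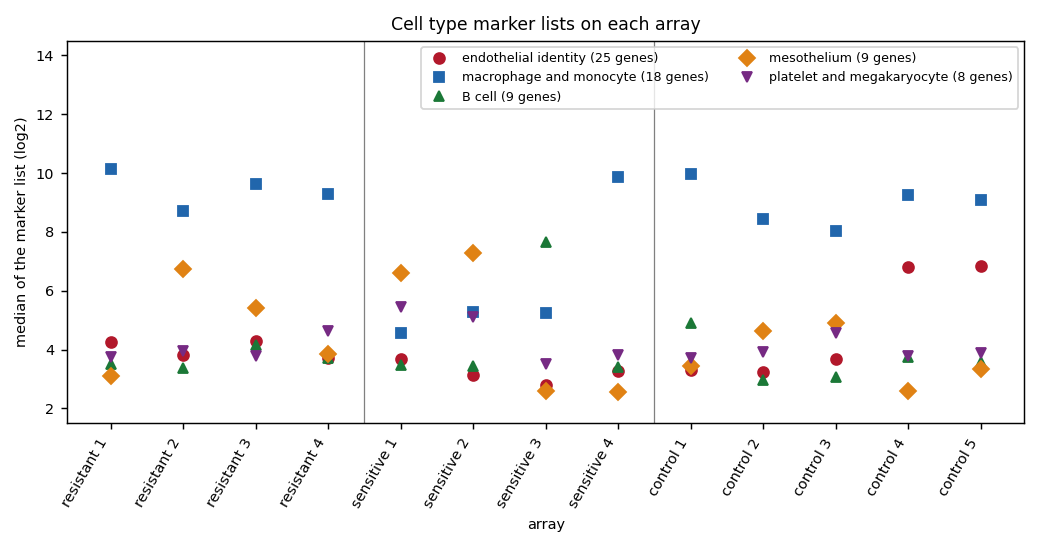
Median log2 value of 5 marker lists (vertical axis) on each of the 13 arrays (horizontal axis, resistant, sensitive and control arrays from left to right); each symbol is the median of 1 list on 1 array. Control 4 and 5 stand apart in endothelial genes, sensitive 1, 2 and 3 in macrophage genes and sensitive 3 in B cell genes.

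Promoter sequence was at hand for 5 of the 10 members, Erg, Tal1, Lyl1, Klf2 and Prox1, with 9 annotated start sites among them (RefSeq, build GRCm38.p6). Sox7, Sox17, Sox18, Fli1 and Ets1 had no entry. The 250 bases before the start are shown for 4 factors whose values on control 4 and 5 went different ways: Tal1 was at its highest there, Lyl1 at its lowest, Klf2 among its lowest, and the 2 probe sets of Erg disagreed. Capitals mark the ETS core GGAA, on either strand, so that TTCC is the same core read from the other strand. Each sequence runs 5′ to 3′ on the strand of its gene.
Erg, the third annotated start, chr16:95459349-95459598, minus strand: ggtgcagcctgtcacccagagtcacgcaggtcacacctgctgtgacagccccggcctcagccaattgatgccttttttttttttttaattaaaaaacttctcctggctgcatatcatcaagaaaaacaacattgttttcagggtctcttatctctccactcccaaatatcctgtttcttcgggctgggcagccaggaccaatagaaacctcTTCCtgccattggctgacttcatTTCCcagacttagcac
Tal1, the first annotated start, chr4:115056176-115056425, plus strand: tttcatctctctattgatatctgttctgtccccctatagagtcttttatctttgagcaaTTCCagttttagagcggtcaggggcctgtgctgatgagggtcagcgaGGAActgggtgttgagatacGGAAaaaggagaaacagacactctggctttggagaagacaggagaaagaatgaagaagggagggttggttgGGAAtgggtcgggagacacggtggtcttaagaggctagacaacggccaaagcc
Lyl1, chr8:84701207-84701456, plus strand: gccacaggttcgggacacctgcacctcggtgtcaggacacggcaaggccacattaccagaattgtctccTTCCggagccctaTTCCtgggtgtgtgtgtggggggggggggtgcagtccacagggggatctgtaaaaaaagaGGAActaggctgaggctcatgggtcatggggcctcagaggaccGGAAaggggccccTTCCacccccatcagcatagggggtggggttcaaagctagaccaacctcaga
Klf2, chr8:72318812-72319061, plus strand: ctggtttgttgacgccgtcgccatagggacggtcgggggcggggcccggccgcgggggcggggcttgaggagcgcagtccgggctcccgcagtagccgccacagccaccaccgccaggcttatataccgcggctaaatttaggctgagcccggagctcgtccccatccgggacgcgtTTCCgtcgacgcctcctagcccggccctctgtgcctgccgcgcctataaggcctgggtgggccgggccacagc
The core occurred 2 times before the third start of Erg, 4 times before Tal1, 5 times before Lyl1 and 1 time before Klf2, but 93.4% of the 32851 promoters in the reference held at least 1 copy. The longer form CCGGAAG, which contains the core, was present in 6.91% of promoters and, of these 4, only before Lyl1, where it reads on the minus strand. The GATA motif AGATAA stood before the first start of Tal1 and before the third start of Erg, and in 9.99% of all promoters. The SOX motif AACAAT stood before the third start of Erg alone of the 4, and in 9.42% of all promoters. The E-box CANNTG, the motif of Tal1 and Lyl1, occurred before Erg (2 times) and Lyl1 (1 time) and in 66.2% of all promoters. The starts of Erg and Tal1 are shown for their matches, and their other starts held fewer kinds: the first start of Erg had none of these motifs, and the second start of Erg and the second start of Tal1 had 4 and 3 GGAA cores and no other. These matches are letters found on either strand and say nothing of binding.

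Of the 10 members, 9 were above the floor of 2.01 (log2) on at least 4 arrays and were tested within the fit of 15384 genes, and Prox1 was not. No member passed limma's moderated test after Benjamini-Hochberg adjustment over all genes in any comparison. That test called 0% of the 15384 genes between resistant and sensitive, 0% between sensitive and control and 0% between resistant and control tumors. At an unadjusted p under 0.05, 0 of 9 members differed between resistant and sensitive tumors, where 4.54% of all genes were higher and 2.53% lower. Between sensitive and control tumors 1 of 9, Fli1, was lower, where 5.32% of all genes were higher and 6.57% lower. Between resistant and control tumors 0 of 9 differed, where 0.995% of all genes were higher and 1.53% lower. The median difference over the 9 members was -0.11 for resistant minus sensitive, -0.23 for sensitive minus control and -0.48 for resistant minus control, against -0.07, 0.09 and 0.03 over all genes tested. Sox7 was the only member whose groups did not overlap at the main probe set, between resistant and sensitive tumors, where 1.87% of all genes did not overlap. The shares of such genes were 3.02% between sensitive and control and 2.7% between resistant and control tumors, with no member among them.

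**Figure D2:**
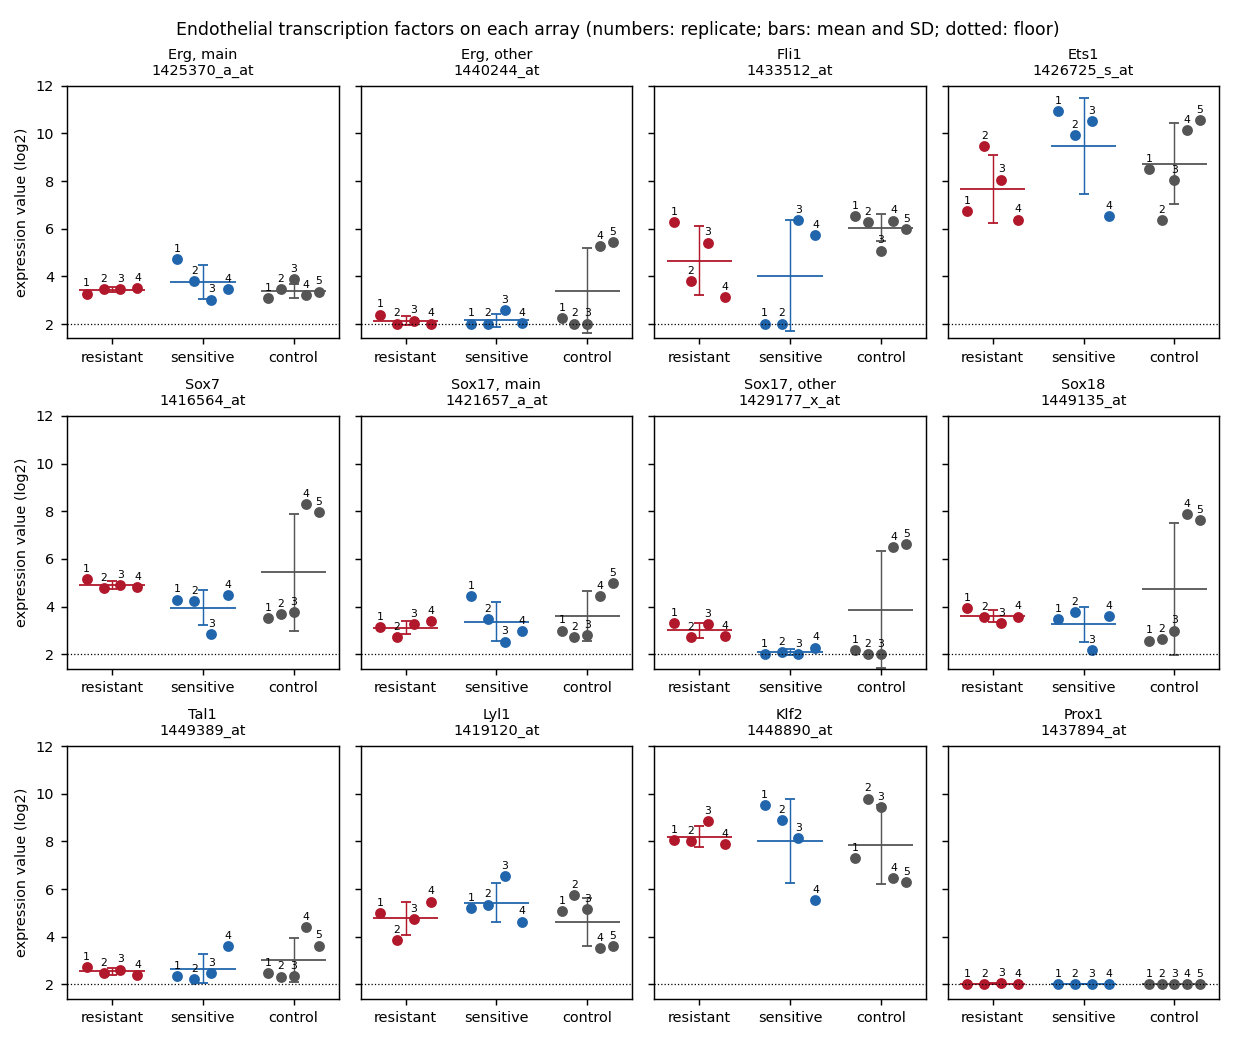
Log2 expression value (vertical axis) of the main probe set of each factor, and of the other probe set of Erg and Sox17, on each array of the resistant, sensitive and control groups; points are arrays numbered by replicate, bars are the mean and SD (n = 4, 4 and 5) and the dotted line is the floor of 2.01. Control 4 and 5 lie far above control 1, 2 and 3 for Sox7, Sox18 and the other probe sets of Erg and Sox17, and below them for Lyl1 and Klf2.

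Erg, an ETS factor needed to keep junctions between endothelial cells, overlapped between the 3 groups at its main probe set, 1425370_a_at. It read 3.28, 3.47, 3.48 and 3.52 in resistant tumors, 4.74, 3.81, 3.02 and 3.48 in sensitive tumors and 3.09, 3.46, 3.87, 3.23 and 3.36 in control tumors. The groups overlapped, with the highest value on sensitive 1 and the lowest on sensitive 3. The differences were -0.33 ± 0.32 (SE) for resistant minus sensitive, 0.36 ± 0.31 for sensitive minus control and 0.03 ± 0.31 for resistant minus control (limma, adjusted p = 0.815, 0.591 and 1.0). The other probe set of Erg, 1440244_at, followed a different course. It lay between the floor and 2.58 on 11 arrays, and stood at 5.27 and 5.45 on control 4 and 5. The main probe set read 3.23 and 3.36 on these 2 arrays, its 11th and 9th highest values of 13. At the other probe set sensitive minus control was -1.24 ± 0.66 and resistant minus control -1.26 ± 0.66 (adjusted p = 0.46 and 1.0), so resistant minus control and sensitive minus control changed sign with the probe set. Over the 13 arrays the other probe set had a Pearson r of 0.93 with the endothelial identity median, which was -0.16 without control 4 and 5, and the main probe set had an r of -0.17. The main probe set instead ran against the trimmed mean of the array (r = -0.82 over 13 arrays, -0.81 without control 4 and 5), so that it was higher where that mean was lower. A low trimmed mean was not a low median. Sensitive 1 and 2, with the lowest trimmed means, had the highest deposited medians (3.04 and 3.03, against 2.72 to 2.93 on the other arrays). These coefficients describe 13 arrays that share libraries with the lists, and whether the signal levels of the array set the values of Erg was not tested.

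Fli1, the closest relative of Erg and also a factor of megakaryocytes and lymphocytes, was the member with the lowest p in the fit. Its values were 6.26, 3.81, 5.42 and 3.14 in resistant tumors. In sensitive tumors it was at the floor on sensitive 1 and 2, and 6.37 and 5.72 on sensitive 3 and 4. In control tumors it was 6.54, 6.26, 5.08, 6.34 and 5.996. The control values lay close together while the sensitive group was split into 2 arrays at the floor and 2 within the control range. Sensitive minus control was -2.01 ± 0.90 (95% CI -3.95 to -0.07), with an unadjusted p of 0.0429 and an adjusted p of 0.407 by limma. The exact two-sided permutation test over the 126 arrangements of these 9 arrays gave p = 0.159. Without sensitive 1 and 2, left out together after their values were seen, the difference was 0.00 ± 0.71 (adjusted p = 1.0). Resistant minus sensitive was 0.63 ± 0.95 with all arrays and -1.39 ± 0.74 without these 2 (adjusted p = 0.87 and 0.419). The second probe set of Fli1 was also lowest on sensitive 1 (at the floor) and sensitive 2 (2.96), with 3.10 on control 3 next, and its sensitive minus control difference was -0.67 ± 0.50 (adjusted p = 0.555). Both probe sets ran with the trimmed mean of the array, with r = 0.93 and 0.92 over 13 arrays and 0.93 for both without control 4 and 5. The macrophage median was low on sensitive 1, 2 and 3 (4.55, 5.28 and 5.25). On sensitive 3 Fli1 was at 6.37 and the B cell median at 7.66. The median of 8 platelet and megakaryocyte genes was highest on sensitive 1 and 2 (5.44 and 5.10, against 3.53 to 4.65 elsewhere), and that of mesothelial genes was high there. The main probe set of Fli1 ran against both lists over 13 arrays (r = -0.90 and -0.79), while the main probe set of Erg ran with them (0.89 and 0.67). The platelet and megakaryocyte genes were split on sensitive 1 and 2. Itga2b, Gp1bb, Gp9 and Treml1 read 4.99 to 6.6 on these arrays and Ppbp was at the floor. Pf4, the brightest of the list, read 6.75 and 6.02 there, against 8.03 to 9.73 in resistant and control tumors. It was lower still on sensitive 3 (4.54) and read 8.60 on sensitive 4. The part of any of these in the values of Fli1 was not tested.

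Ets1, expressed in growing vessels and in lymphocytes, varied more between the arrays of a group than between the groups. Its main probe set read 6.74, 9.48, 8.06 and 6.39 in resistant tumors, 10.9, 9.94, 10.5 and 6.53 in sensitive tumors and 8.49, 6.35, 8.05, 10.1 and 10.6 in control tumors. Every group spanned more than 3 log2 units, and sensitive 4 lay with the lowest resistant and control arrays. Resistant minus sensitive was -1.81 ± 1.05 (95% CI -4.06 to 0.43, adjusted p = 0.761 by limma), the largest difference of any member in that comparison, and -2.80 without sensitive 4 (adjusted p = 0.147). The exact permutation test over the 70 arrangements of 8 arrays gave p = 0.2. The other 3 probe sets of Ets1 were also lower in resistant than in sensitive tumors, with differences of -0.94 ± 1.06, -0.99 ± 0.83 and -0.85 ± 0.62. At all 4 the sensitive 3 array was among the 3 highest of 13, and at 2 of them, 1422028_a_at and 1422027_a_at, it was the highest (8.43 and 6.61). That array carried the highest B cell median, and 1422028_a_at had an r of 0.82 with the B cell median over 13 arrays and 0.96 without control 4 and 5. The main probe set differed here, with an r of 0.34, and was highest on sensitive 1, where B cell genes were low (3.49). The part of lymphocytes in the values of Ets1 was not tested.

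**Figure D3:**
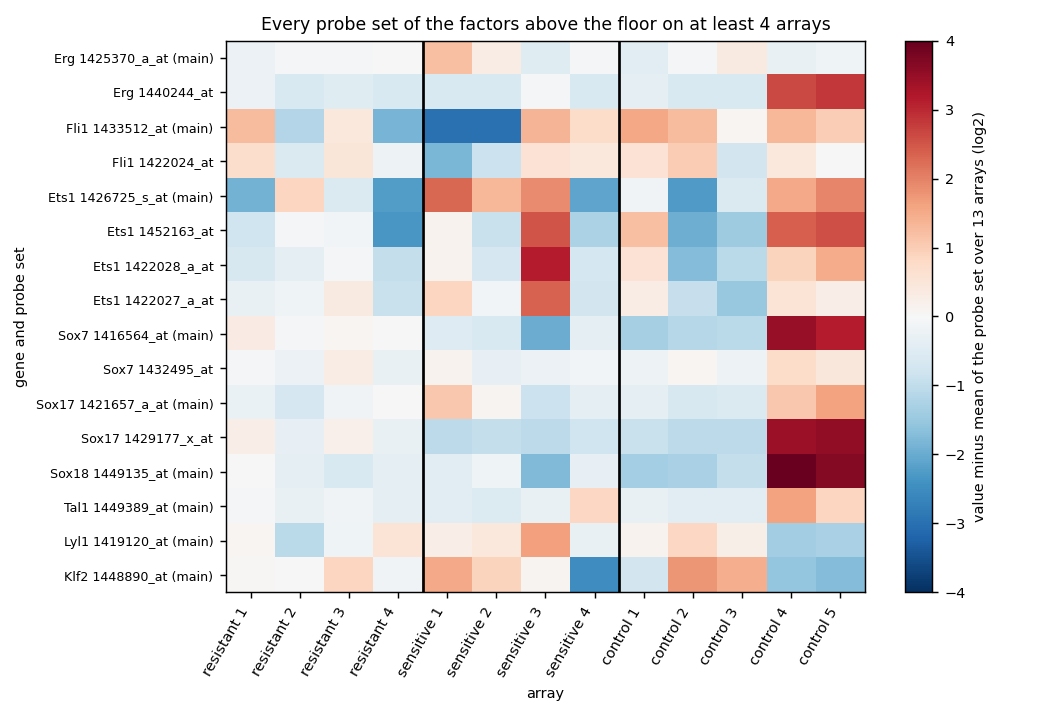
Every probe set of the factors that was above the floor on at least 4 arrays (rows), on each array (columns), as the log2 value minus the mean of that probe set over 13 arrays; red is above and blue below the mean. Control 4 and 5 are red for both Sox17 probe sets, Sox7, Sox18, Tal1 and the other probe set of Erg and blue for Lyl1 and Klf2, and sensitive 1 and 2 are blue for Fli1.

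At the main probe sets, Sox7 and Sox18 ran closest to the endothelial identity list (r = 0.97 and 0.96), while the main probe set of Sox17 (0.78) ran no closer than Tal1 (0.79). Sox7 read 5.15, 4.76, 4.90 and 4.81 in resistant tumors, 4.30, 4.23, 2.85 and 4.47 in sensitive tumors and 3.51, 3.68, 3.75, 8.31 and 7.95 in control tumors. Each of the 4 resistant arrays exceeded each of the 4 sensitive arrays, and both groups lay below control 4 and 5. Resistant minus sensitive was 0.95 ± 0.99 (95% CI -1.18 to 3.07), with an adjusted p of 0.819 by limma, which takes its spread from all 3 groups, and with an exact permutation p of 0.0286, the smallest that 4 against 4 arrays allow. That p is unadjusted, and it was the only one under 0.05 among 27 such tests of the main probe sets. Over all 48 such tests of main and other probe sets 2 were, the second being that of Sox17 at 1429177_x_at. Most of that spread came from the control group, whose SD was 2.46, against 0.17 in resistant and 0.75 in sensitive tumors. Without sensitive 3 the lowest sensitive value was 4.23 and the resistant arrays still lay above. The second probe set of Sox7 read between 2.30 and 3.36 and did not separate the groups, with a resistant minus sensitive difference of 0.06 ± 0.22.

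Resistant and control tumors compared differently for Sox7 once control 4 and 5 were set aside. These arrays were left out after their values were seen and held the 2 highest values of Sox7 and of Sox18, so leaving them out raises the difference from control by its construction, and it is given as a description with no test. With all arrays resistant minus control was -0.53 ± 0.94 (adjusted p = 1.0). Without control 4 and 5 it was 1.26 ± 0.41, and all 4 resistant arrays lay above control 1, 2 and 3. Sox18, which is mutated in a syndrome of sparse hair and lymphedema in humans, did the same. It read 3.94, 3.56, 3.32 and 3.58 in resistant tumors, 3.47, 3.77, 2.18 and 3.60 in sensitive tumors and 2.58, 2.62, 2.99, 7.89 and 7.62 in control tumors. Its resistant minus control difference was -1.14 ± 1.04 with all arrays and 0.87 ± 0.36 without control 4 and 5. In that comparison without control 4 and 5, 2.72% of all genes had all resistant above all control arrays. The median difference of the endothelial identity list, by which these 2 arrays also stand apart, was 0.57 there. The shift was not confined to resistant tumors. Without control 4 and 5, sensitive minus control was 0.31 for Sox7 and 0.52 for Sox18. For both genes sensitive 1, 2 and 4 lay above control 1, 2 and 3, and sensitive 3 lay below them. Between resistant and sensitive tumors Sox18 overlapped, with a difference of 0.35 ± 1.09 (adjusted p = 0.937).

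Sox17, a factor of arterial endothelium, again depended on the probe set. The main one read 3.13, 2.72, 3.25 and 3.40 in resistant tumors, 4.45, 3.49, 2.53 and 2.98 in sensitive tumors and 2.99, 2.73, 2.81, 4.45 and 4.98 in control tumors. Its groups overlapped and resistant minus sensitive was -0.24 ± 0.52 (adjusted p = 0.906). The other probe set, 1429177_x_at, read 3.31, 2.73, 3.27 and 2.76 in resistant tumors, at most 2.28 in sensitive tumors with sensitive 1 and 3 at the floor, and 2.18, floor, floor, 6.49 and 6.62 in control tumors. At this probe set the lowest resistant array exceeded the highest sensitive one, and its difference was 0.91 ± 0.95 (adjusted p = 0.819, unadjusted exact permutation p = 0.0286). Its _x_at suffix marks probes that may also match other sequences, and a value at the floor understates a difference. Sensitive 1 was the array on which the probe sets parted most among the treated tumors, at 4.45 on the main one and at the floor on the other. The other probe set had an r of 0.98 with the endothelial identity median over 13 arrays and 0.83 without control 4 and 5, against 0.78 and 0.26 for the main one. The same coefficients were 0.97 and 0.82 for Sox7 and 0.96 and 0.59 for Sox18.

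Tal1, which works with Gata and Lmo2 proteins in blood and endothelial progenitors, was near the floor on most arrays. It read 2.73, 2.48, 2.63 and 2.39 in resistant tumors, 2.36, 2.24, 2.48 and 3.59 in sensitive tumors and 2.47, 2.33, 2.37, 4.39 and 3.63 in control tumors. The 3 high arrays were sensitive 4, control 4 and control 5, and the other 10 lay between 2.24 and 2.73. No comparison passed, with differences of -0.11 ± 0.43 for resistant minus sensitive, -0.37 ± 0.40 for sensitive minus control and -0.48 ± 0.40 for resistant minus control. Its r with the endothelial identity median was 0.79 over 13 arrays and 0.03 without control 4 and 5.

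Lyl1, its paralog, ran the other way. It read 5.01, 3.85, 4.75 and 5.48 in resistant tumors, 5.19, 5.35, 6.56 and 4.64 in sensitive tumors and 5.07, 5.76, 5.16, 3.51 and 3.62 in control tumors. Control 4 and 5 held its 2 lowest values and sensitive 3, the B cell rich array, its highest. Resistant minus sensitive was -0.66 ± 0.56, sensitive minus control 0.81 ± 0.53 and resistant minus control 0.15 ± 0.53 (adjusted p = 0.803, 0.514 and 1.0). Its r with the endothelial identity median was -0.80 over 13 arrays and -0.59 without control 4 and 5, and with Tal1 it was -0.70 and -0.34. Counted over the main probe sets of the 9 tested members, control 4 and 5 held the 2 highest values of 4 (Sox7, Sox17, Sox18 and Tal1). They held the 2 lowest values of 1 (Lyl1). Of all genes tested they held the 2 highest values of 2.84% and the 2 lowest of 2.11%. Both arrays were singled out after their values were seen, and endothelial genes were high there, so this count is no test. The other probe set of Erg also had its 2 highest values on these arrays.

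Klf2, the flow-induced factor that is also made by resting lymphocytes and monocytes, had no difference larger than its error. It read 8.05, 8.01, 8.87 and 7.88 in resistant tumors, 9.54, 8.89, 8.13 and 5.53 in sensitive tumors and 7.29, 9.80, 9.46, 6.47 and 6.28 in control tumors. The resistant arrays lay within 1 log2 unit of each other, while the lowest values were on sensitive 4, control 5 and control 4. Resistant minus sensitive was 0.18 ± 0.89 (95% CI -1.72 to 2.09), sensitive minus control 0.16 ± 0.84 and resistant minus control 0.34 ± 0.84. The sign of the first turned when 1 of 2 arrays was left out: resistant minus sensitive was -0.65 without sensitive 4 and -0.039 without resistant 3. Klf2 ran against Tal1 over the 13 arrays (r = -0.79, and -0.81 without control 4 and 5).

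Prox1, the lymphatic factor, was at the floor at all 3 of its probe sets on all arrays, but for 2.07 on resistant 3 at the main one. It passed no filter, and at this floor neither a level nor a difference could be measured. Of 6 measured genes that it directs or that mark lymphatic vessels, Lyve1, a hyaluronan receptor of lymphatic endothelium and of some macrophages, was higher in resistant than in sensitive tumors at an unadjusted p of 0.0291 (1.71 ± 0.70, adjusted p = 0.658). It was lower in sensitive than in control tumors at an unadjusted p of 0.0239 (-1.69 ± 0.67, adjusted p = 0.357). It read 6.63, 4.84, 6.78 and 5.92 in resistant tumors, 3.89, 4.33, 3.55 and 5.58 in sensitive tumors and 7.05, 4.86, 4.48, 7.71 and 6.02 in control tumors. The lowest Lyve1 values fell on sensitive 1, 2 and 3, the arrays with low macrophage medians. Control 3, resistant 2 and control 2 came next (4.48, 4.84 and 4.86), with macrophage medians of 8.03, 8.72 and 8.43. The part of macrophages in the values of Lyve1 was not tested. The other 5 genes gave no p under 0.05 in any comparison.

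**Figure D4:**
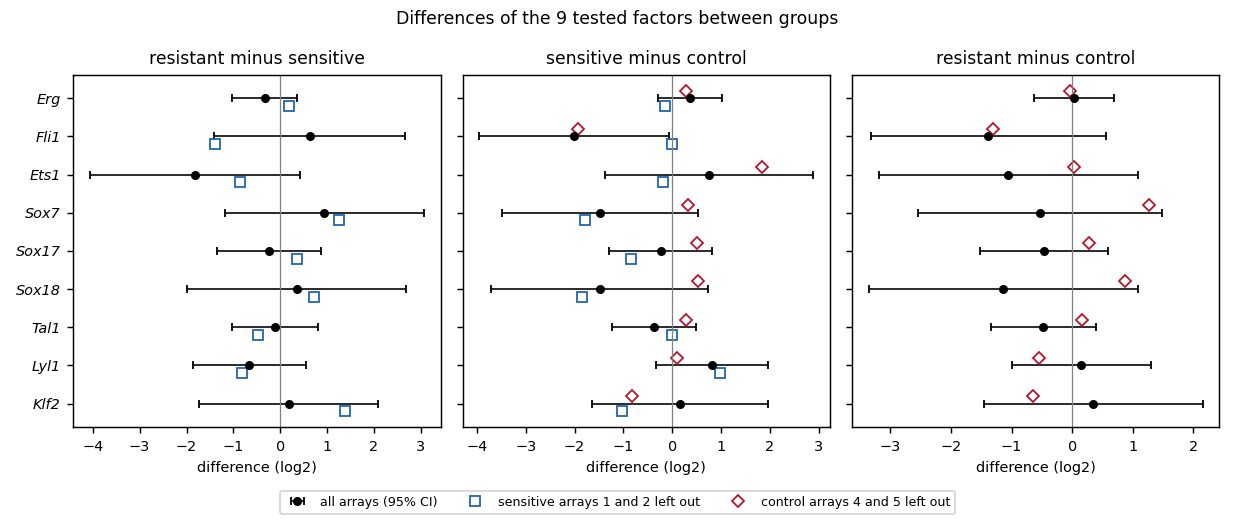
Log2 difference (horizontal axis) of the 9 tested factors (rows) in the 3 comparisons; black points and bars are limma's estimate and 95% CI over all arrays, open diamonds the estimate without control 4 and 5 and open squares the estimate without sensitive 1 and 2. Only the interval of Fli1 in sensitive minus control excludes 0, and its square lies at 0.00; without control 4 and 5 the resistant minus control difference of Sox7 is 1.26 and of Sox18 0.87.

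Set side by side by where else they are made, the factors shared with mature blood cells and those not typical of them had unlike medians in sensitive minus control and similar ones in resistant minus control. The 5 shared factors had median differences of -0.11 for resistant minus sensitive, 0.16 for sensitive minus control and -0.48 for resistant minus control. Sox7, Sox17 and Sox18 had medians of 0.35, -1.48 and -0.53 in the same order. Without control 4 and 5 the medians of sensitive minus control were 0.11 for the shared factors and 0.52 for the SOXF factors, and those of resistant minus control were -0.56 and 0.87. The difference between these subsets was not tested. Beside them, the macrophage list had a median of 2.56 for resistant minus sensitive. Of its genes, 16 of 18 were higher at an unadjusted p under 0.05, against 4.54% of all genes tested. The B cell list had a median of -0.37, with 0 of 9 genes at that p. The sensitive minus control median of the macrophage list was -2.37, with 15 of 18 genes lower, against 6.57% of all genes tested. What part the other cells had in the values of the shared factors was not tested.

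Of 22 other endothelial transcription factors, 20 were tested, and Hey2 and Meox2 were at the floor on all arrays. Between resistant and sensitive tumors, 4.54% of all genes tested were higher and 2.53% lower at an unadjusted p under 0.05. Of the 20 factors, 0 were lower and 3 higher, with a median difference of 0.12. These were Lmo2, the bridging partner of Tal1 (1.58 ± 0.58, adjusted p = 0.604), Elk3, a repressing ETS factor (1.78 ± 0.68, adjusted p = 0.609), and Ets2, a further ETS factor (1.17 ± 0.48, adjusted p = 0.651). Lmo2 read 7.91, 6.05, 6.87 and 6.56 in resistant tumors, 4.80, 3.62, 6.24 and 6.41 in sensitive tumors and 7.09, 6.34, 6.11, 7.12 and 7.16 in control tumors. Elk3 read 7.18, 5.99, 6.59 and 6.54 in resistant tumors, 2.59, 4.42, 5.44 and 6.74 in sensitive tumors and 6.73, 6.56, 5.76, 7.53 and 6.95 in control tumors. Both were low on sensitive 1 and 2, as Fli1 was, and sensitive 4 overlapped the resistant arrays. Ets2 read 8.3, 8.5, 9.3 and 11.1 in sensitive tumors, with sensitive 4 above every resistant array (10.2 to 10.7), and 9.8 to 10.4 in control tumors. The macrophage medians of the sensitive arrays were 4.55, 5.28, 5.25 and 9.86. What part macrophages had in the values of Lmo2, Elk3 and Ets2 was not tested. Between sensitive and control tumors Elk3 (-1.91 ± 0.64) and Lmo2 (-1.50 ± 0.55) were lower and Nfatc1, a factor of heart valve and lymphatic endothelium, was higher (1.04 ± 0.41), all with adjusted p between 0.301 and 0.362. Of all genes tested, 6.57% were lower and 5.32% higher between these groups at an unadjusted p under 0.05. No gene of the list had a p under 0.05 between resistant and control tumors. Hey1, a Notch target of arterial endothelium, had the split of the SOXF factors in the control group, with 7.52 and 7.24 on control 4 and 5 against 2.75 to 4.61 on the other 11 arrays. It is named here after its values were seen.

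The known targets of the members were measured on the same arrays. Of 11 genes driven by ETS factors in endothelium, 8 had a positive resistant minus sensitive difference and 11 a negative sensitive minus control difference, with medians of 0.66 and -1.51. At an unadjusted p under 0.05, Icam2, an adhesion protein also carried by leukocytes and platelets, was higher in resistant than in sensitive tumors (2.11 ± 0.64, adjusted p = 0.512), and Icam2 (-1.82 ± 0.61) and Cdh5, the cadherin of endothelial junctions (-2.42 ± 1.07), were lower in sensitive than in control tumors (adjusted p = 0.299 and 0.401). Cdh5 read 4.28, 2.87, 4.16 and 3.13 in resistant tumors, 2.24, 2.11, 2.33 and 3.27 in sensitive tumors and 3.03, 2.61, 2.89, 7.96 and 8.06 in control tumors. The order of control 4 and 5 over all other arrays was that of Sox7 and Sox18, not that of Fli1 or of the main probe set of Erg. Icam2 read 6.77, 5.64, 5.85 and 6.69 in resistant tumors, 2.63, 3.12, 6.19 and 4.58 in sensitive tumors and 5.61, 5.67, 5.32, 6.80 and 6.34 in control tumors, low on sensitive 1 and 2 as Fli1 was. Over all 25 endothelial identity genes, 20 had a positive resistant minus sensitive difference (median 0.64). Icam2 and the receptor Cd93 (2.55 ± 1.08, adjusted p = 0.679) were higher at an unadjusted p under 0.05, against 4.54% of all genes tested. Cd93 read 3.7, 3.2, 5.1 and 9.6 in sensitive tumors, where the macrophage medians were 4.55, 5.28, 5.25 and 9.86. The part of macrophages in Cd93 was not tested. The sensitive minus control difference was negative for 24 genes (median -1.29), with 5 lower at that p, against 6.57% of all genes tested. Without control 4 and 5 the median sensitive minus control difference of the 11 ETS targets was 0.14.

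Of 6 measured targets of Klf2, 1 had a p under 0.05. Edn1, the vasoconstrictor endothelin that Klf2 represses, was lower in sensitive than in control tumors (-1.82 ± 0.65, adjusted p = 0.322). It read 5.49, 5.19, 6.02 and 6.06 in resistant tumors, 5.23, 5.21, 2.83 and 4.68 in sensitive tumors and 5.04, 5.49, 5.48, 7.67 and 7.84 in control tumors. Nos3 and Thbd are named outside the rule, for their known control by Klf2. Nos3, the endothelial nitric oxide synthase that Klf2 induces, was 2.62 to 3.64 in resistant tumors, 2.49 to 4.38 in sensitive tumors and 2.74 to 5.69 in control tumors, where control 4 and 5 were the highest arrays and those with low Klf2. Thbd, the anticoagulant receptor thrombomodulin that Klf2 also induces, was 6.81 to 7.26 in resistant tumors, 4.78 to 8.08 in sensitive tumors and 5.93 to 6.74 in control tumors. Neither differed in any comparison at an unadjusted p under 0.05.

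**Figure D5:**
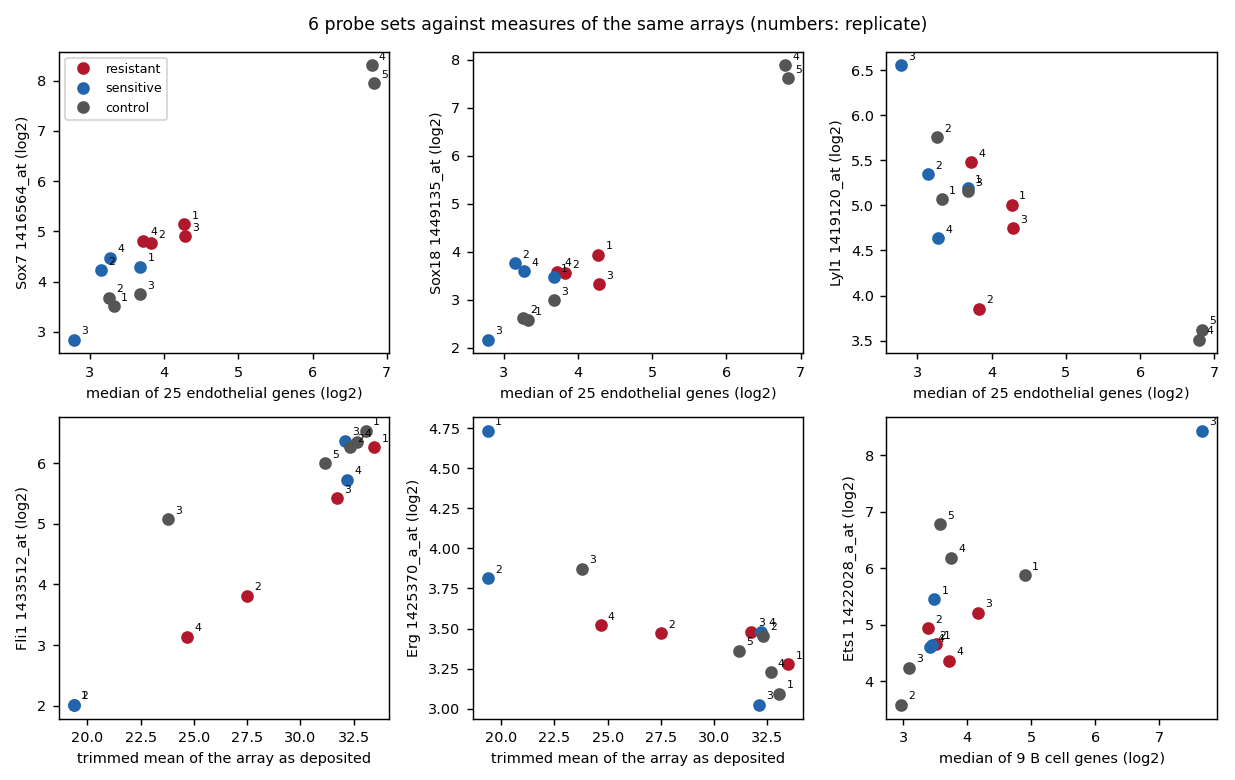
Log2 value of 6 probe sets (vertical axes) against a measure of the same array (horizontal axes): the median of 25 endothelial genes for Sox7, Sox18 and Lyl1, the trimmed mean of the array as deposited for Fli1 and the main probe set of Erg, and the median of 9 B cell genes for the Ets1 probe set 1422028_a_at; points are arrays, numbered by replicate and colored by group. Control 4 and 5 set the right end of the upper row, sensitive 1 and 2 the left end for Fli1 and Erg, and sensitive 3 the right end for Ets1.

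The 3 genes whose values ran closest to each member over the 13 arrays were found by Pearson's r among all genes tested, as a description. For Sox7 they were Adgrl4, an adhesion receptor of endothelium (r = 0.985, and 0.918 without control 4 and 5), Sox18 (0.982 and 0.901) and Plvap, the protein of endothelial diaphragms (0.973 and 0.938). For Sox18 they were Sox7, Pecam1, which encodes CD31 (0.981 and 0.751), and Adgrl4 (0.981 and 0.931). For Sox17 they were Ackr1, a chemokine-binding receptor of venules (0.946 and 0.927), the endothelial factor Bcl6b (0.935 and 0.823) and Me3 (0.922 and 0.855). The nearest genes of the other members were not endothelial markers: Sh3tc2, Ercc2 and Psd for Erg (r from 0.965 to 0.971), Rpe, Rnf169 and Jpt2 for Fli1 (0.952 to 0.965), Tnk2, Cobll1 and Trp53i11 for Ets1 (0.870 to 0.888), Gpr85, G2e3 and Cmpk2 for Tal1 (0.903 to 0.949), Abhd11, Tmem131l and Med11 for Lyl1 (0.872 to 0.908) and Fbxo32, Ezr and Serpini1 for Klf2 (0.896 to 0.907). Among the pairs of members, Sox7 and Sox18 ran closest, and Erg and Fli1 ran against each other (r = -0.77, and -0.75 without control 4 and 5). Fli1 ran with the trimmed mean of the deposited array (r = 0.93) and the main probe set of Erg against it (-0.82). What part the signal levels of the arrays had in this opposition was not tested.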

How the data were processed

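Gene expression was measured on 13 Affymetrix mouse arrays of sorted tumor cells. The sources differ on the processing by the authors: the labels name the standard Affymetrix protocol and MAS5, and the methods of the study name Illumina bead chips and BRB-ArrayTools. The deposited values of 45101 probe sets were taken as log2 intensities, and the base is not given in the sources used here.

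The arrays were quantile normalized, since their trimmed means differed by 1.73 times, and values were floored at the 30th percentile, 2.01. Of the probe sets, 34958 had 1 gene symbol. Of 18193 genes, the 15384 above the floor on at least 4 arrays were fitted with limma 3.58.1 (R 4.3.3) over all 3 groups with an intensity trend and 10 residual degrees of freedom, and p-values were adjusted by Benjamini-Hochberg over these genes. Exact two-sided permutation tests were made with scipy 1.17.1, with smallest p of 0.0286 (4 against 4 arrays) and 0.0159 (4 against 5). The fit was tested on simulated data. The number of arrays limits the precision.

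The members, the gene lists and the left-out arrays were chosen with earlier results of these data known. Besides the members, genes of other lists were named where their unadjusted p was under 0.05, at most 3 per list and comparison, and the 3 genes most alike each member. Alternatives covered scaling, floor, filter, probe sets, variance model, samples, a plain Student t-test (the methods name one with a random variance model, not run here) and single arrays left out.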

Additional observations from a re-analysis of the deposited data

Results flagged for a closer look

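A single array lay far from the rest of its group, by Dixon's criterion, in 3 of 49 groups of probe set values tested. Where all other arrays lie at or next to the floor, any array clearly above them is flagged, as for Erg and Prox1 below. No chance rate is therefore set beside this count. The gap ratio is the distance of that array to its nearest neighbor as a share of the range of the group. For Sox7 the sensitive 3 array was low, at 2.85 against 4.23 to 4.47 on the other sensitive arrays (gap ratio 0.848). For the other probe set of Erg the same array was high, at 2.58, with the others at or next to the floor (gap ratio 0.984). For the main probe set of Prox1 the resistant 3 array read 2.07 with all others at the floor (gap ratio 1.0), a gap of under 0.1 log2 units.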

How the results depend on the processing

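No member passed the adjusted threshold under any of 747 alternative values tried over 27 planned settings and 8 added after the data were seen, and 682 of these values kept their direction while 65 reversed it. Resistant minus sensitive of Sox7 was positive in 28 of 28 alternatives, sensitive minus control of Lyl1 in 28 of 28, and resistant minus control of Fli1 was negative in 27 of 27. Many alternatives, such as another variance model or an array of the third group left out, cannot change the estimated difference. All these tallies of direction are therefore partly fixed in advance.

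Counts of all genes called moved as follows. Resistant minus sensitive, 0 in the report, gave 1 with the floor at the 50th percentile, 2 with only the arrays of the 2 groups and 15 without sensitive 1 and 2. Sensitive minus control, 0 in the report, gave 15 without sensitive 1 and 2. Without sensitive 1, 2 and 3 the 1 sensitive array left was assumed to vary like the other groups, so no count is given. Resistant minus control, 0 in the report, gave 34 with array weights. Leaving out single arrays gave 0 to 428 for resistant minus sensitive and 0 to 696 for sensitive minus control, both highest without sensitive 4. No member was among the genes called there.

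Counts of members with an unadjusted p under 0.05 moved too. Resistant minus sensitive gave 1 (Sox7) with a plain Student t-test (3.44% of all genes). Over single arrays left out it gave 0 to 1 (Ets1), with 1 without sensitive 4 (16.3% of all genes) and without resistant 2 (7.11%). Without sensitive 1, 2 and 3 only 1 sensitive array is left, so no count is given. The difference of Klf2 was 2.68 there. Sensitive minus control, 1 in the report, gave 0 with values as deposited, median-centered arrays and the floor at the 50th percentile. It also gave 0 with no filter on low values, the mean of all probe sets, no intensity trend and the t-test. The same held without control 4 and 5 and without sensitive 1 and 2. In these settings 6.79% to 14.1% of all genes had such a p. Over single arrays left out it gave 0 to 1, where 7.88% to 23.2% of all genes had such a p. Resistant minus control gave 5 with array weights (Fli1, Sox17, Sox18, Tal1 and Klf2), where 15.4% of all genes had such a p. It gave 1 with only the arrays of the 2 groups (Fli1, against 6.67% of all genes). Without control 4 and 5 it gave 2 (Sox7 and Sox18, against 1.66% of all genes). Those were the 2 highest arrays of both genes, so that this count is no test.

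Reversed differences of resistant minus sensitive were Sox17 at 0.34 with the mean of all probe sets and 0.91 at its other probe set, Fli1 at -1.06, Ets1 at 1.14, Sox17 at 0.14 and Lyl1 at 0.14 without sensitive 1, 2 and 3, and Erg at 0.19, Fli1 at -1.39 and Sox17 at 0.37 without sensitive 1 and 2. Single arrays left out gave ranges of -0.045 to 1.41 for Fli1, -0.52 to 0.12 for Sox17, -0.011 to 0.52 for Sox18, -0.26 to 0.20 for Tal1 and -0.65 to 0.69 for Klf2.

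Reversed differences of sensitive minus control were Klf2 at -0.29 with values as deposited and -0.41 with median-centered arrays, Erg at -0.44 with the mean of all probe sets and -1.24 at its other probe set, and Ets1 at -0.27 with array weights and -0.44 at probe set 1452163_at. Without control 4 and 5 they were Sox7 at 0.31, Sox17 at 0.52, Sox18 at 0.52, Tal1 at 0.28 and Klf2 at -0.83. Without sensitive 1, 2 and 3 they were Ets1 at -2.19, Tal1 at 0.56 and Klf2 at -2.33, and without sensitive 1 and 2 Erg at -0.15, Fli1 at 0.0040, Ets1 at -0.19 and Klf2 at -1.03. Single arrays left out gave ranges of -0.34 to 0.99 for Klf2 and -0.59 to 0.12 for Sox17.

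Reversed differences of resistant minus control were Erg at -0.61 with the mean of all probe sets and -1.26 at its other probe set, and Ets1 at 0.011 at probe set 1422027_a_at. Without control 4 and 5 they were Erg at -0.037, Ets1 at 0.036, Sox7 at 1.26, Sox17 at 0.28, Sox18 at 0.87, Tal1 at 0.17, Lyl1 at -0.56 and Klf2 at -0.64. Single arrays left out gave ranges of -0.043 to 0.15 for Erg, -1.02 to 0.18 for Sox7, -0.13 to 0.45 for Lyl1 and -0.050 to 0.83 for Klf2.

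The replicate numbers of the labels did not pair the arrays: same-numbered arrays of different groups had correlations of deviations between -0.43 and 0.53, and 5 of 13 arrays were closest to their own number. With the replicate number as a block, 0 genes and 0 members were counted in each comparison, sensitive minus control reversed to 0.12 for Sox17 and -0.23 for Klf2, and resistant minus control to 0.094 for Sox7, -0.10 for Lyl1 and -0.050 for Klf2. The cause of these shifts was not tested, beyond the smaller number of arrays in the fits that left some out. The floor understates changes of dim probe sets, among them Tal1, Prox1 and the other probe sets of Erg and Sox17.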

Other observations

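Several other endothelial transcription factors, named here after their values were seen, had a few arrays far from the rest. Nr2f2, the factor of venous endothelium that mesothelial and stromal cells also make, read 4.57, 6.29, 5.60 and 6.18 in resistant tumors, 9.82, 9.47, 4.27 and 4.09 in sensitive tumors and 4.24, 4.85, 6.30, 5.24 and 5.93 in control tumors. Its resistant minus sensitive difference was -1.25 and its sensitive minus control difference 1.60 (limma, unadjusted p = 0.287 and 0.158), and its 2 high arrays were those at the floor for Fli1.

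Mef2c, a factor of vessels, muscle and B cells, read 5.86, 4.38, 5.29 and 3.92 in resistant tumors, the floor, 2.09, 8.67 and 5.69 in sensitive tumors and 7.01, 4.64, 3.62, 5.72 and 6.01 in control tumors. Its highest array was sensitive 3, the one with the highest B cell median. Epas1, the hypoxia-inducible factor of endothelium, read 8.14, 8.62, 8.15 and 7.72 in resistant tumors, 6.47, 6.84, 7.91 and 7.48 in sensitive tumors and 7.08, 6.31, 6.60, 9.72 and 9.84 in control tumors. Its resistant minus sensitive difference was 0.99 (limma, unadjusted p = 0.197), and control 4 and 5 again held the highest values.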
